A study of Mus musculus with 6 samples.

Results

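Genes that the transcription factor p53 switches on were followed in a mouse beta-cell line infected to overexpress miR-7 and in mouse islets with a miR-7 gene deleted; mature miR-7 itself was not measured. The members are Cdkn1a, Mdm2, Plk2, Phlda3, Trp53inp1, Zmat3, Perp, Pmaip1, Ccng1 and Eda2r, taken with every probe set whose only gene symbol is one of these names. They make up 10 of 18194 named genes and 17 of 45101 probe sets, and the rule goes by gene name, with no threshold on these arrays. The members, and the lists of related genes below, were however chosen with earlier results of these data known. Their shares and medians beside those of all genes thus describe them and are no independent test. MIN6 cells, an insulin-secreting mouse insulinoma line, had been infected for 48 h with an adenovirus carrying green fluorescent protein (AdGFP, 1 array), miR-7a2 (AdmiR7a, 2 arrays) or miR-7b (AdmiR7b, 1 array), all at a multiplicity of infection of 250 in medium with 4.5 g/l glucose, 2% serum and 5.5 µM mercaptoethanol. Pancreatic islets came from C57BL/6 mice, either with miR-7a2 removed from beta cells by Cre and lox sites (KO, 1 array) or wild type (WT, 1 array). The Cre driver, the age of the mice and how many were pooled are not given in the sources used here, and islets also hold cells that the deletion leaves alone. The AdmiR7a infection is described as a duplicate, without saying whether the cultures were separate, so the p-values measure the spread between these arrays, which may be technical.

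p53 is a sequence-specific activator that damaged DNA, oncogenes and other stresses stabilise. Its targets form a feedback loop, in which Mdm2 marks p53 for degradation, and several output arms, among them cell cycle arrest through Cdkn1a and cell death through Pmaip1 and Perp. MIN6 cells descend from mice with the simian virus large T antigen in beta cells, a viral protein known to bind and block p53.

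The agent in all 3 miR-7 infections has the same seed (bases 2 to 8, in capitals), the stretch by which a microRNA pairs with its targets, as the RefSeq mature sequences of build GRCm38.p6 show. miR-7a-5p is encoded by Mir7-2 (chr7:78888295-78888317, plus strand), the locus deleted in KO, and also by Mir7-1 (chr13:58392841-58392863, minus strand), and miR-7b-5p by Mir7b (chr17:56243017-56243040, plus strand). Counted from the 5′ end, miR-7b-5p differs from miR-7a-5p by A10U and is 1 base longer.
mmu-miR-7a-5p: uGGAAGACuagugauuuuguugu
mmu-miR-7b-5p: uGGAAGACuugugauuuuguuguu

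Classical p53 sites lie just upstream of Cdkn1a and Ccng1. Promoter windows of 250 bases before to 50 after a gene's start (RefSeq, GRCm38.p6) covered 6 of the 10 genes, in 7 windows. They were searched for the p53 half-site consensus and for a full site of 20 bases. Full sites were pairs of half-sites back to back and at most 1 base off. The C and G of both cores had to be in place. In the Ccng1 site the base off lies between the C and G of the first core. The motif is its own reverse complement, so both strands were searched. A full site was found in 2 of the 7 windows, against 0.067% of all 32851 windows, and a half-site in 3, against 8.36% of all; the genes were named for being p53 targets, so this is a description of them. The Cdkn1a site lies 51 to 32 bases before the annotated upstream start and the Ccng1 site 195 to 176 bases before its start; these 2 are shown (full site in capitals, 20 bases on either side) because both genes are measured below. The Mdm2 window held a half-site, and the windows of Plk2, Phlda3, Eda2r and the second Cdkn1a start held none, which says only that these letters are not in these windows.
Cdkn1a, chr17:29090908-29090967, plus strand, upstream of the first exon: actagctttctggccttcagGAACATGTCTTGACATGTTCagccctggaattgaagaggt
Ccng1, chr11:40755442-40755501, minus strand, upstream of the first exon: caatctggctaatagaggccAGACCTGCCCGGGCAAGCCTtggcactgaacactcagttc

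GCRMA, run by the authors, gave each probe set a log2 intensity, on which 1 unit is a doubling and 2.17 is the lowest value of the table; values under 4 lie near the background, and no probe set is set against another. The AdGFP array stood apart: it differed from the 3 miR-7 arrays by an SD of 0.509 to 0.575 across genes, whereas these differed among themselves by 0.194 to 0.215. Hybridisation controls, spiked in after RNA labelling, averaged 11.6 (log2) on AdGFP, 11.7 and 11.8 on AdmiR7a and 11.9 on AdmiR7b, thus in the order that most members showed, and their part in the results was not tested. Of 7 beta-cell markers 6 were far above background on all arrays, but the glucose transporter gene Slc2a2, at 14.1 to 14.5 in islets, was at 3.84 on AdGFP and 2.52 on each miR-7 array. Of the 6 tested in the pooled limma fit described below, 3 fell with miR-7: Pdx1 fell by 0.99 (adjusted p = 0.0137), Nkx6-1 fell by 0.76 (adjusted p = 0.0191) and Slc30a8 fell by 0.73 (adjusted p = 0.0182). The list's median was -0.51, the alpha-cell gene Gcg fell by 0.53 (adjusted p = 0.0423) and 11.9% of all genes fell. None of these genes passed without any 1 miR-7 array (0 calls), and the part of these changes in the members' differences was not tested. The defining genes of acinar cells (4 of 4 measured) were under 4 on all 6 arrays, and all 4 immune genes were under 4 in MIN6 but between 6.14 and 9.30 in islets.

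In MIN6 cells with miR-7, most p53-induced genes were higher than with AdGFP. Of the 9 members with a mean of at least 4 over the MIN6 arrays, 6 rose (Plk2, Phlda3, Trp53inp1, Eda2r, Mdm2 and Ccng1), 1 fell (Zmat3) and 2 did not pass (Cdkn1a and Perp). Eda2r, under 4 on AdGFP, met that mean only through its miR-7 arrays. Its place in these counts and in the median is thus tied to the filter. The test was limma on the 3 miR-7 arrays pooled against AdGFP, with a threshold of 0.05 on p adjusted by Benjamini and Hochberg's method over 10369 genes, of which 14.3% rose and 11.9% fell. The members' median difference was 1.03 (log2) and that of all genes tested 0.06. AdGFP lay below all 3 miR-7 arrays for 8 of the 9 members and above all 3 for the remaining one, Zmat3, which holds for 46.5% and 32.9% of all genes tested. Every MIN6 difference rests on that 1 AdGFP array, and the fit assumes that it varies like the others. Leaving out AdmiR7a replicate 1, AdmiR7a replicate 2 or AdmiR7b left 0 genes called by limma, with lowest adjusted p of 0.0650, 0.0772 and 0.0667 and 3765, 3888 and 3811 genes at an unadjusted p under 0.05; every member kept its direction.

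**Figure D1:**
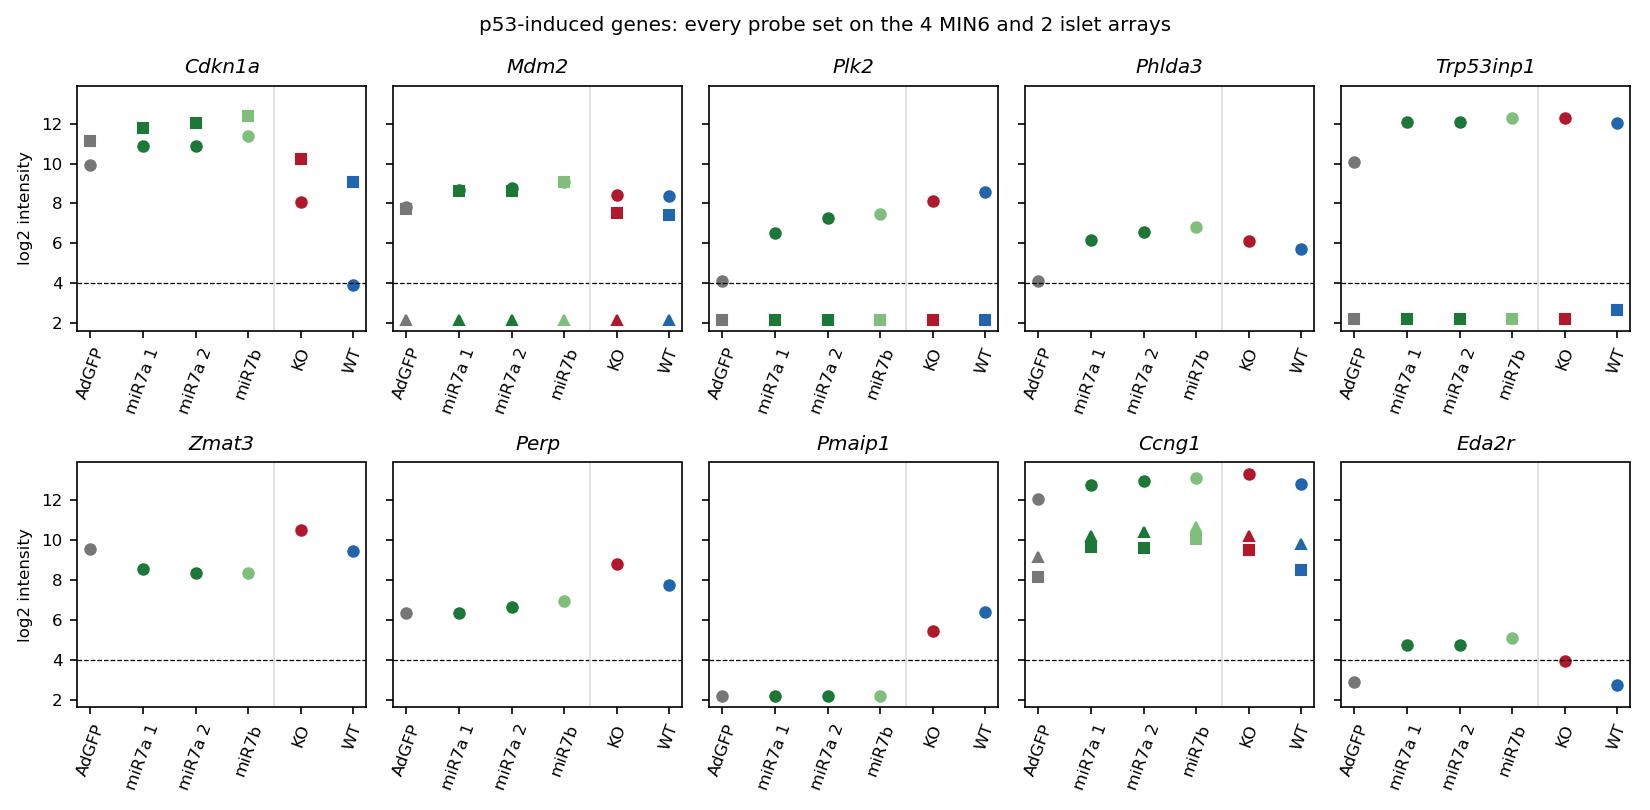
Log2 intensity (y axis) of all 17 probe sets of the 10 genes on the AdGFP, AdmiR7a (2), AdmiR7b, KO and WT arrays (x axis). Each point is 1 array, and the marker shape tells the probe sets of a gene apart. The grey vertical line parts the MIN6 arrays from the islet arrays, and the dashed line marks 4. In most panels AdGFP is the lowest of the 4 MIN6 points, and Zmat3 runs the other way. Pmaip1 lies at or just above the floor in MIN6 but between 5.43 and 6.40 in islets.

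The feedback arm rose. Mdm2, the ubiquitin ligase that restrains p53, was at 7.82 on AdGFP, 8.69 and 8.77 on AdmiR7a and 9.10 on AdmiR7b. A second Mdm2 probe set ran in parallel, from 7.74 on AdGFP to 8.63, 8.64 and 9.09, and the last was at the floor of 2.17 on all 6 arrays. Mdm2 thus rose 2.04-fold, by 1.03 ± 0.19 (log2, SE; limma adjusted p = 0.0319; 0.0514 when each probe set was tested on its own; 0.0667 to 0.105 without 1 of the miR-7 arrays).

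Ccng1, whose product cyclin G1 recruits a phosphatase to Mdm2, had 3 probe sets, all with AdGFP lowest. The one with the highest signal was at 12.1 on AdGFP, 12.8 and 13.0 on AdmiR7a and 13.1 on AdmiR7b. It rose by 0.89 ± 0.15 (log2, SE; limma adjusted p = 0.0266, and 0.0657 to 0.102 without 1 of the miR-7 arrays). The other Ccng1 probe sets gave larger differences, 1.63 ± 0.22 from 8.14 on AdGFP and 1.27 ± 0.19 from 9.15, so the size for this gene ran from 1.85-fold to 3.09-fold depending on the probe set. The Ccng1 window holds 1 of the full p53 sites shown above, and the part of that site in the difference was not tested. The other full site lies in a window of Cdkn1a, which did not pass. The windows of Plk2, Phlda3 and Eda2r, which rose by more, held none.

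Of the arrest genes, Plk2 rose and Cdkn1a did not pass. Plk2, a polo-like kinase gene, stood at 4.11 on AdGFP, 6.52 and 7.26 on AdmiR7a and 7.47 on AdmiR7b. It rose by 2.97 ± 0.41 (log2, SE; limma adjusted p = 0.0204, and 0.0650 to 0.0921 without 1 of the miR-7 arrays), rank 7 from the highest of 10369 genes. The AdGFP value is just above background and the AdmiR7a arrays differed by 0.74, so the size of this fold is loosely set. Its other probe set lay at 2.17 throughout, and with both averaged the difference was 1.49.

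Cdkn1a encodes p21, the inhibitor of cyclin-dependent kinases. It was at 11.1 on AdGFP, 11.8 and 12.0 on AdmiR7a and 12.4 on AdmiR7b, the AdGFP value being the lowest. The difference was 0.93 ± 0.25 (log2, SE; limma adjusted p = 0.0654), and the second probe set gave 1.13 ± 0.26, from 9.91 on AdGFP to 10.9, 10.9 and 11.4. Cdkn1a passed the threshold under 4 of 13 alternatives, among which AdmiR7a alone and the fit without AdmiR7b are the same. Its adjusted p (limma) was 0.0301 for a filter at 6 and 0.0429 with the mean of both probe sets. It was 0.0415 after renewed quantile normalization and 0.0487 after centring. Over all 13 the adjusted p ran from 0.0301 to 0.320.

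Phlda3 and Trp53inp1 rose, and Zmat3 fell. Phlda3, which restrains the kinase Akt by competing for membrane lipids, was at 4.11 on AdGFP, 6.16 and 6.56 on AdmiR7a and 6.84 on AdmiR7b. Trp53inp1, a nuclear stress protein that promotes p53 activity and autophagy, was at 10.1 on AdGFP, 12.1 on both AdmiR7a arrays and 12.3 on AdmiR7b. Phlda3 rose by 2.41 ± 0.29 (log2, SE; limma adjusted p = 0.0169) and Trp53inp1 by 2.09 ± 0.11 (adjusted p = 0.010), a 5.32-fold and a 4.25-fold difference. Trp53inp1 is far above background on every array, unlike Phlda3 on AdGFP; its second probe set stayed under 4 on all 6 arrays, and with both averaged the difference was 1.04.

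Zmat3, a zinc finger protein that binds RNA, was at 9.57 on AdGFP, 8.53 and 8.34 on AdmiR7a and 8.34 on AdmiR7b. All 3 miR-7 arrays lay below AdGFP. It fell by 1.17 ± 0.11 (log2, SE; limma adjusted p = 0.0132), a 2.24-fold difference in the direction opposite to the rest. Without 1 of the miR-7 arrays the adjusted p of Phlda3 ran from 0.0650 to 0.0855, and those of Trp53inp1 and Zmat3 from 0.0650 to 0.0772.

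Among the death and surface genes only Eda2r passed. Eda2r, the receptor of the ectodysplasin A2 ligand, was at 2.88 on AdGFP, 4.72 and 4.75 on AdmiR7a and 5.07 on AdmiR7b. It rose by 1.96 ± 0.17 (log2, SE; limma adjusted p = 0.0127, and 0.0650 to 0.0772 without 1 of the miR-7 arrays). AdGFP is under 4 here, and the mean of 4.35 over the MIN6 arrays met the filter of 4 only through the miR-7 arrays. The rise of Eda2r is thus tied to its entry into the test. With values under 4 set to 4 the difference was 0.84, so the size depends on values at the background. That setting also let every gene pass the filter, so its adjusted p = 0.221 (limma) is not that of the floor alone. Perp, a membrane protein of desmosomes with a part in cell death, was at 6.33 on AdGFP, 6.35 and 6.65 on AdmiR7a and 6.92 on AdmiR7b. AdGFP and the first AdmiR7a array were nearly equal for Perp, and the difference of 0.31 ± 0.24 (log2, SE) had adjusted p = 0.393. Pmaip1, which encodes the death-promoting protein Noxa, was at 2.17 to 2.18 on the 4 MIN6 arrays. These values are at or just above the floor of the table, and Pmaip1 was not tested there.

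**Figure D2:**
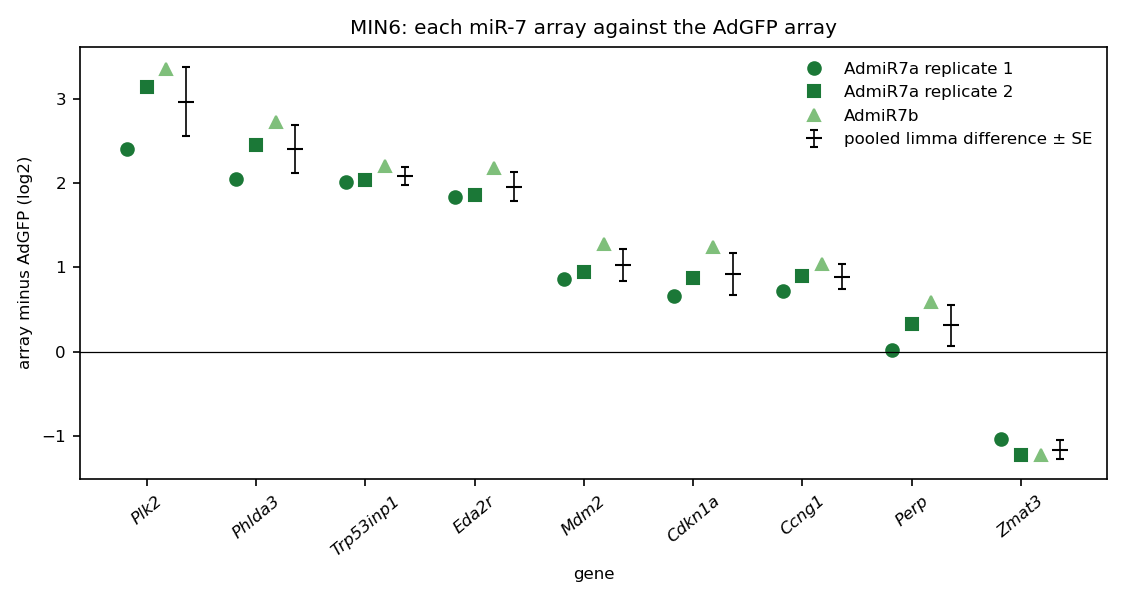
Difference of each miR-7 array from the AdGFP array (y axis, log2) for the 9 members tested in MIN6 (x axis); green points are the 3 arrays and the black bar is the pooled limma difference ± SE. The pooled differences run from 2.97 for Plk2 to -1.17 for Zmat3, and the AdmiR7b triangle is the highest point for all but Zmat3.

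Most members were higher on the AdmiR7b array than on either AdmiR7a array, a comparison that does not involve AdGFP. AdmiR7b exceeded both AdmiR7a arrays for 8 of the 9 members, against 38.9% of all genes tested, 51.3% of the 4823 genes with AdGFP below all miR-7 arrays and 56.1% of the 1480 genes that rose. For the ninth, Zmat3, AdmiR7b was below both, as for 29.4% of all genes. The difference was 0.59 ± 0.41 (log2, SE) for Plk2, 0.48 ± 0.23 for Phlda3, 0.47 ± 0.14 for Cdkn1a, 0.42 ± 0.18 for Perp, 0.37 ± 0.08 for Mdm2, 0.33 ± 0.07 for Eda2r, 0.23 ± 0.11 for Ccng1, 0.18 ± 0.07 for Trp53inp1 and -0.10 ± 0.12 for Zmat3. The members' median was 0.37 and that of all genes 0.02. None passed the test: limma with a mean per vector called 0 of 10369 genes (608 at an unadjusted p under 0.05), and the members' adjusted p ran from 0.737 to 0.856. With 1 AdmiR7b array any feature of that array enters all members alike, and on it the hybridisation controls exceeded those of the AdmiR7a arrays by 0.09 (log2); their part was not tested. AdmiR7a replicate 2 was in turn above replicate 1 for every tested member but Zmat3. The gap was 0.74 for Plk2, 0.40 for Phlda3 and 0.31 for Perp, down to 0.02 for Trp53inp1, and -0.19 for Zmat3. The members thus shifted together between arrays of 1 vector as well, and the share of all genes that did so was not counted.

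With AdmiR7a alone against AdGFP the members' median was 0.90 and that of all genes 0.05, but limma with a mean per vector, which has 1 residual degree of freedom, called 0 genes (3811 at an unadjusted p under 0.05; lowest adjusted p 0.0667). With AdmiR7b against the same AdGFP array the medians were 1.28 and 0.07, with 1 array per group.

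Other parts of the p53 network had smaller median differences. Of 17 measured other p53-induced genes 4 rose and 3 fell, with a median of 0.29. The repair genes Polk, Ercc5 and Xpc rose by 0.86, 0.81 and 0.71. Tigar, an enzyme that lowers glycolysis, fell by 0.86, the kinase gene Plk3 fell by 0.67 and the mTOR inhibitor gene Ddit4 fell by 0.46 (limma adjusted p of the 6 between 0.013 and 0.027). The highly expressed Gadd45a and Ei24 were at -0.02 (adjusted p = 0.863) and -0.58 (adjusted p = 0.061). Plk3 and Plk2 thus went opposite ways. Without any 1 of the 3 miR-7 arrays none of the list genes of this and the next paragraph passed (0 calls, lowest adjusted p 0.0650).

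Of 17 measured regulators of p53, 2 rose and 2 fell, with a median of 0.13. The acetyltransferase gene Kat5 rose by 0.72 and Cdkn2a, whose locus encodes a protein that blocks Mdm2, rose by 0.67. The kinase genes Hipk2 and Chek2, both of which phosphorylate p53, fell by 0.60 and fell by 0.47 (limma adjusted p = 0.033 and 0.0498). The gene for p53 itself was not analysed here, and the abundant Rpl11 (0.07) and Trp53bp1 (0.08) did not pass (adjusted p = 0.519 and 0.497). Of 12 family relatives of the members 0 rose and 2 fell: Trp53inp2, the paralog of Trp53inp1, fell by 1.22 ± 0.25 (adjusted p = 0.038) and Plk3, counted above, fell; Cdkn1b, the p27 paralog of Cdkn1a, was at -0.06 (adjusted p = 0.739) and Plk4 at -0.41 (adjusted p = 0.0504). Of 19 cell cycle genes known to be lowered through p21, 1 fell, the ribonucleotide reductase gene Rrm2 (fell by 0.60, adjusted p = 0.0227), and the median was -0.02; Mcm5 was at 0.35 (adjusted p = 0.071) and Mki67 at -0.36 (adjusted p = 0.119). These lists are read beside the 14.3% of all genes that rose and the 11.9% that fell.

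Interferon-induced genes, a sign of a response to virus, were higher too. Of 4 measured, 3 rose (Rsad2 by 2.48, Irf9 by 0.93 and Usp18 by 0.87, limma adjusted p = 0.0115, 0.0174 and 0.0204, and 0 of them without any 1 miR-7 array), against 14.3% of all genes, and Cxcl10 was at 0.03 (limma adjusted p = 0.90). Oas1a, left out by the filter, was at 4.38 on AdGFP and between 2.95 and 4.35 on the miR-7 arrays. The list's summed linear intensity over its 7 genes with a probe set was 369.6 on AdGFP and 716 to 819 on the miR-7 arrays. Mx1 and Ifit1 were under 4 on all MIN6 arrays. All MIN6 arrays came from infected cells, and the part of this response in the p53-induced genes was not tested.

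**Figure D3:**
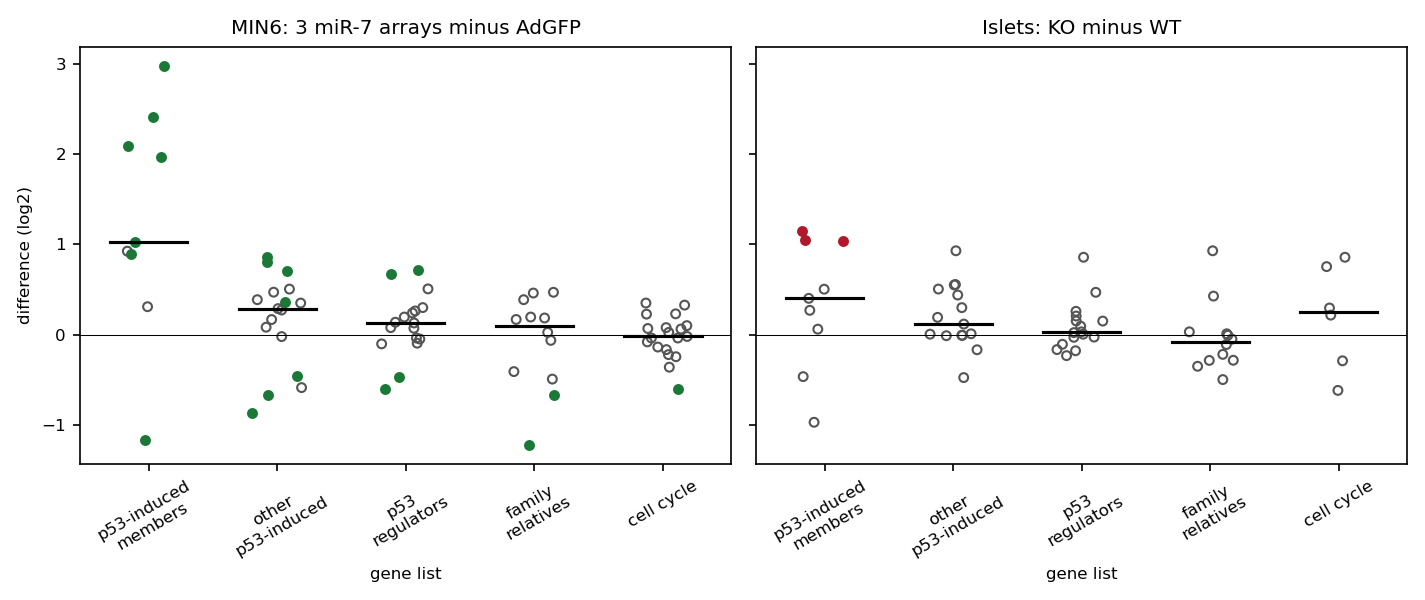
Log2 difference (y axis) of each measured gene of the p53-induced members and of 4 related lists (x axis) in MIN6 (left, 3 miR-7 arrays minus AdGFP) and in islets (right, KO minus WT); filled points passed the limma test (left) or a log2 size of 1 (right), bars are medians, and sideways scatter only separates points. In MIN6 the members' median of 1.03 compares with 0.29, 0.13, 0.10 and -0.02 for the other lists.

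In islets lacking miR-7a2, several p53-induced genes were higher than in WT, with 1 array a group and thus no test. Of 9 members with a mean of at least 4 over the islet arrays, 7 were higher and 2 lower in KO, and 44.7% of 10568 genes were higher. Cdkn1a, Perp and Zmat3 were higher by at least 1 (log2), 3 of 9 members against 1.36% of all genes, and 0 members were lower by that size against 1.29% of all genes. These 3 are the tested members not called as risen in MIN6, where Cdkn1a and Perp did not pass and Zmat3 fell. The members' median was 0.40 and that of all genes -0.03. Fewer cells of a type and less RNA per cell cannot be told apart in these bulk samples. Spiked poly-A transcripts, added before labelling, averaged 9.15 (log2) in KO and 10.4 in WT, and their part in the results was not tested.

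The probe sets of Cdkn1a disagreed on the size. One stood at 10.2 in KO and 9.06 in WT, 2.22-fold higher in KO. The other, with the widest gap between the islet arrays among the 17 probe sets, stood at 8.05 in KO and 3.93 in WT, a difference of 4.12, but its WT value is under 4 and limited by the background. With the mean of both, Cdkn1a was 2.64 (log2) higher. Both probe sets were far higher in MIN6 cells, at 9.91 to 12.4, than in WT islets.

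Perp stood at 8.82 in KO and 7.77 in WT, and Zmat3 at 10.5 and 9.46, 2.07-fold and 2.06-fold higher in KO. Zmat3 was thus lower with the miR-7 vectors and higher where miR-7a2 was deleted, the latter from 1 array a group. Plk2 went the opposite way in both, at 2.97 in MIN6 and -0.46 in KO islets. Ccng1 was higher in KO on all 3 probe sets, by 0.50, 0.96 and 0.45 (log2), and Phlda3 stood at 6.13 against 5.73. Trp53inp1 was at 12.3 in KO and 12.0 in WT, 0.27 higher; averaged with its dim second probe set it was at -0.11. Mdm2 barely differed, at 8.43 and 8.37 on one probe set and 7.52 and 7.44 on another.

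Pmaip1 and Plk2 were lower in KO. Pmaip1 stood at 5.43 in KO and 6.40 in WT, a difference of -0.97, and Plk2 at 8.13 and 8.60, a difference of -0.46 (-0.23 with both probe sets averaged). Eda2r was left out by the filter, at 3.92 in KO and 2.75 in WT. Of the 6 members that rose in MIN6, Plk2 was lower in KO and Eda2r was under the filter. The others were higher in KO by less than 1: Mdm2 by 0.06, Phlda3 by 0.40, Trp53inp1 by 0.27 and Ccng1 by 0.50. Of all genes 44.7% were higher in KO, and the share among genes that rose in MIN6 was not counted. The MIN6 and islet differences come from opposite changes of miR-7 and share no array.

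**Figure D4:**
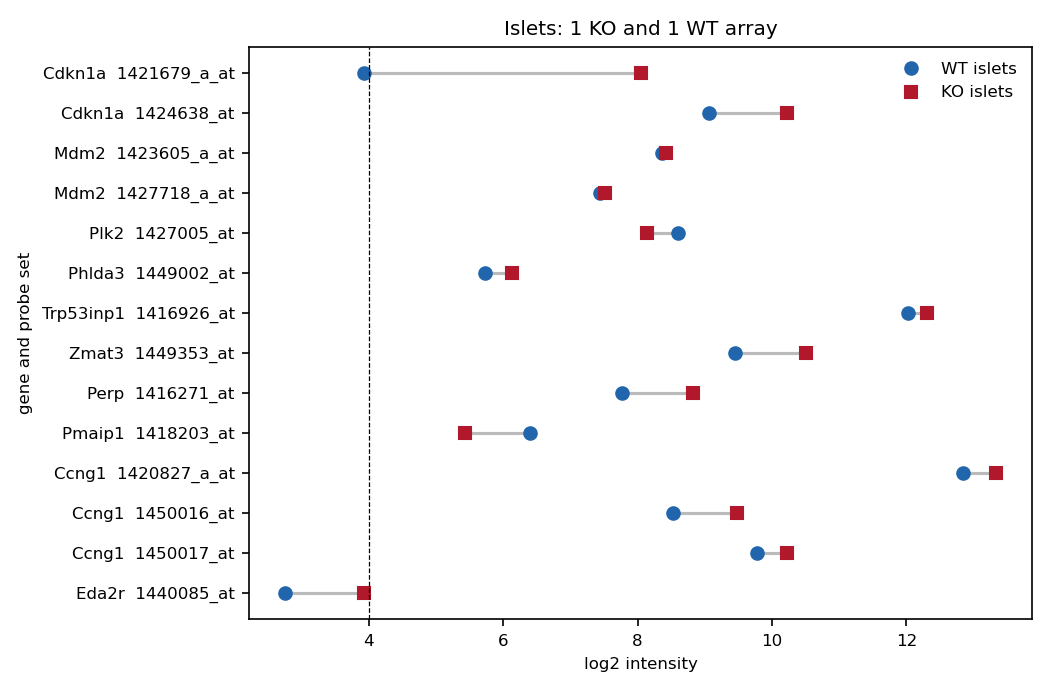
Log2 intensity (x axis) on the WT (blue circles) and KO (red squares) islet arrays for each probe set of a member that reached 3 on either array (y axis); grey lines join the 2 arrays and the dashed line marks 4. KO lies to the right of WT for all probe sets but those of Plk2 and Pmaip1, and the longest line, 4.12, is the Cdkn1a probe set whose WT value is near 4.

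Of the measured genes of the 4 other lists, 0 were past a log2 size of 1 in islets in either direction, a share near the 1.36% higher and 1.29% lower of all genes. The closest were Plk3 (0.93), Chek1 (0.86) and E2f1 (0.75), named after their values were seen. KO exceeded WT for 10 of 15 other p53-induced genes (median 0.12) and for 10 of 16 regulators (median 0.03). It did so for 4 of 12 family relatives (median -0.08) and for 4 of 6 measured cell cycle genes (median 0.26). Interferon-induced genes were higher in KO for 6 of 7, led by Mx1 at 8.42 in KO and 2.54 in WT and the chemokine gene Cxcl10 at 8.37 and 7.04, and their summed linear intensity was 2410.1 in KO and 1362 in WT. Summed endothelial markers were 1431 in KO and 1569 in WT, immune markers 1173 and 1141 and stellate markers 716 and 899. Among single markers the endothelial gene Pecam1 was at 5.19 in KO and 6.30 in WT, and the duct gene Krt19 at 4.45 and 2.68. The part of these cells and genes in the differences was not tested.

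Between the systems, the same probe sets read differently. Plk2 was at 4.11 on AdGFP and 8.60 in WT islets, 4.49 (log2) apart, and with miR-7 it came to 6.52 to 7.47, still under both islet arrays. Pmaip1 was at or just above the floor in MIN6, which gives no size for its gap to the 6.40 of WT islets. Trp53inp1 and Phlda3 were 1.96 and 1.62 higher in WT islets than on AdGFP, and with miR-7 they reached 12.1 to 12.3 and 6.16 to 6.84, at or above the WT values of 12.0 and 5.73. Cdkn1a ran the other way, 2.08 higher on AdGFP than in WT islets, whereas Zmat3 differed by 0.11. Eda2r, under 4 on AdGFP and in both islet arrays, gives no comparison. Each of these is 1 array against 1 array of another system, so no test was made. The actin control, read at its 3′ and 5′ ends, was 1.43 to 1.48 (log2) higher at the 3′ end in MIN6 and 2.65 and 2.77 in islets, and the part of this gap in the comparison was not tested.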

How the data were processed

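The authors deposited a log2 intensity per probe set, from GCRMA and the affy package per the submitters' processing notes, which give no versions; scanner files were not used here, and which arrays were normalized together is not given in the sources used here. Of 45101 probe sets, 34958 had 1 gene symbol, 932 several and 9211 none in the platform table; Entrez identifiers of 34754 were found in RefSeq (GRCm38.p6). A gene was represented by its brightest probe set (highest mean in MIN6 or in islets), and genes with a mean under 4 were left out (10369 kept in MIN6, 10568 in islets). limma 3.58.1 (R 4.3.3) was fitted to all genes, two-sided, with Benjamini-Hochberg adjustment: pooled miR-7 arrays against AdGFP (2 residual degrees of freedom), or a mean per vector (1). SEs are limma's moderated ones. Islets had 1 array a group and no test. The fits were tested on simulated data. The number of arrays limits the precision. The 10 members, the 4 related lists and the tests were chosen with earlier results of these data known. From each list the text names up to 6 genes past the threshold with the largest differences and the 2 most expressed that did not pass, and in islets genes past a log2 size of 1. Other filters, normalizations, probe set rules and left-out arrays were tried.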

Additional observations from a re-analysis of the deposited data

How the results depend on the processing

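The members' directions in the pooled MIN6 fit held under all alternatives tried, from 12 for Eda2r and Phlda3 to 13 for the others, but the calls did not: 6 members rose and 1 fell as reported, and these counts became 1 and 0 with no filter and 0 and 0 with values under 4 set to 4. Among all genes 427 rose and 554 fell with no filter, and 123 rose and 185 fell with that floor. The floor was set before the filter, so every gene passed the filter. The parts of floor and filter in these calls are thus not separated. Leaving out any 1 miR-7 array gave 0 calls for members and for all genes in either direction (lowest adjusted p 0.0650 to 0.0772). AdmiR7a alone, with a mean per vector, is the same fit as leaving out AdmiR7b, although the alternatives count both. With AdmiR7b alone, 1 array against 1, the members' median was 1.28. With averaged probe sets, of which some lie at the floor, the pooled difference was 1.49 for Plk2, 1.04 for Trp53inp1 and 0.69 for Mdm2, and Plk2 in KO islets was at -0.23. For AdmiR7a against AdGFP the 0 calls became 5 members up and 1 down (890 and 847 of all genes) with a filter at 6, 6 and 1 (453 and 514) with averaged probe sets, 7 and 1 (1250 and 1112) after renewed quantile normalization and 7 and 1 (1105 and 1220) after centring, with 156 and 194 of all genes with no filter and 83 and 138 with the floor. For AdmiR7b against AdmiR7a the floor gave 67 genes up and 25 down, none a member. The cause of these changes was not tested. In islets 1 member, Pmaip1, was lower by the size after renewed normalization and at a size of 0.58. Counts of all genes higher and lower were 81 and 53 with a filter at 6, 714 and 275 for single probe sets, 434 and 499 at a size of 0.58, and 212 lower with no filter and 74 lower with averaged probe sets. No paired analysis was possible because only AdmiR7a had 2 arrays and no label pairs arrays across groups. Signal over background limits Eda2r on AdGFP and a Cdkn1a probe set in WT islets, both under 4, and Plk2 and Phlda3 on AdGFP, which lie just above 4.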
